A study of Mus musculus with 16 samples.

Results

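The Slc1 genes encode a family of sodium-coupled membrane transporters, and 6 of them were followed here: Slc1a1 to Slc1a6. They were chosen by name, as genes of this family, with no measured value used in the choice. Each was represented by 1 probe set on the array, so the family made up 6 of 19938 genes with a single symbol. Slc1a7, the retinal member of the family, was also on the array and is given once below. Expression was measured on 16 one-colour Affymetrix arrays of total RNA from mouse brain, in 4 groups. SEZ control and OB control had 5 arrays each, and SEZ cKO and OB cKO had 3 arrays each. SEZ is the subependymal zone, the stem cell niche along the lateral ventricle, and OB is the olfactory bulb, the target of the neurons born there.

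Every mouse was 2.5 months old, of a mixed C57BL/6 and CD1 background, and carried GlastCreERT2, a tamoxifen-inducible recombinase placed in the Slc1a3 locus. The cKO samples were GlastCreERT2/Brg1fl/fl, and the control samples were GlastCreERT2/Brg1fl/+. The exception was SEZ control replicate 5, which is labelled GlastCreERT2/Brg1+/+. The labels list no treatment and do not say how many copies of the driver allele a mouse carried. All groups carry the driver, so no level of Slc1a3 in mice without it was available for comparison. Brg1 is the chromatin remodelling ATPase encoded by Smarca4, whose level was 10.70 in SEZ cKO and 10.71 in SEZ control samples, and 11.02 and 11.01 in OB. One value stands for the whole gene in mixed tissue, so this does not check the deletion. Striatal markers averaged 12.69 to 12.89 in SEZ arrays and 8.77 to 9.17 in OB arrays, and bulb interneuron markers 8.73 to 9.08 and 11.46 to 11.58. The tissue labels therefore matched these markers, and the SEZ samples included striatal tissue.

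Slc1 proteins fall into glutamate transporters and neutral amino acid transporters. The glutamate transporters carry glutamate together with sodium ions and end its action at synapses. Slc1a3 (GLAST) and Slc1a2 (GLT-1) do so mainly in astrocytes, and Slc1a3 also marks radial glia and adult neural stem cells, which is why its locus is used to drive recombination there. Slc1a1 (EAAC1) is the neuronal transporter, Slc1a6 (EAAT4) is best known from cerebellar Purkinje cells, and Slc1a4 (ASCT1) and Slc1a5 (ASCT2) exchange serine, alanine, glutamine and related amino acids. The questions were at which level each member stood in the 4 groups, and whether the others moved with Slc1a3.

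RefSeq start-site windows for GRCm38.p6 were found for 5 of the 6 members. The 250 bases before the start of Slc1a3 and of Slc1a1 are shown because the former is the locus of the driver and the latter contrasts with it in composition. They lie at chr15:8710808-8711057 on the minus strand and at chr19:28834885-28835134 on the plus strand. Capitals mark matches on either strand to the GC box, spelled GGGCGG, to the CCAAT box, spelled as named, and to the TATA box, here searched as TATAAA. No matches overlap in these windows.
Slc1a3: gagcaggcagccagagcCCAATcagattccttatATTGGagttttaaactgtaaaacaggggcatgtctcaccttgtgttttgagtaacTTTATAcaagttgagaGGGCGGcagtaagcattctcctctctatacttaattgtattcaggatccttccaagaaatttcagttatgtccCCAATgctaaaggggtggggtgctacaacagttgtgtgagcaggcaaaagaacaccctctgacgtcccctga
Slc1a1: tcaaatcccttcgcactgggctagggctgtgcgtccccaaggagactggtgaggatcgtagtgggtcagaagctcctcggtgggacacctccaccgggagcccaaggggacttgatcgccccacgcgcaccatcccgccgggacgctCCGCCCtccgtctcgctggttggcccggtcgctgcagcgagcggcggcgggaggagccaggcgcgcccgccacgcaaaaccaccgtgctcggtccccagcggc
The Slc1a3 window had 44.8% G and C and 2 CpG sites, against 70.4% and 27 CpG sites for Slc1a1. Over 32851 windows of this length the median was 52.4%. The window of Slc1a2 also had 44.8%, with 1 CpG site, so the low share was not particular to Slc1a3. Those of Slc1a4 and Slc1a6 had 64.8% and 78.8%. The Slc1a3 window held 1 GC box, 3 CCAAT boxes and 1 TATA box, and the Slc1a1 window held 1 GC box. Of all windows, 32.74% held a GC box, 33.85% a CCAAT box and 12.37% a TATA box. These matches describe letters only. The expression arrays carry no measurement at these windows.

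**Figure D1:**
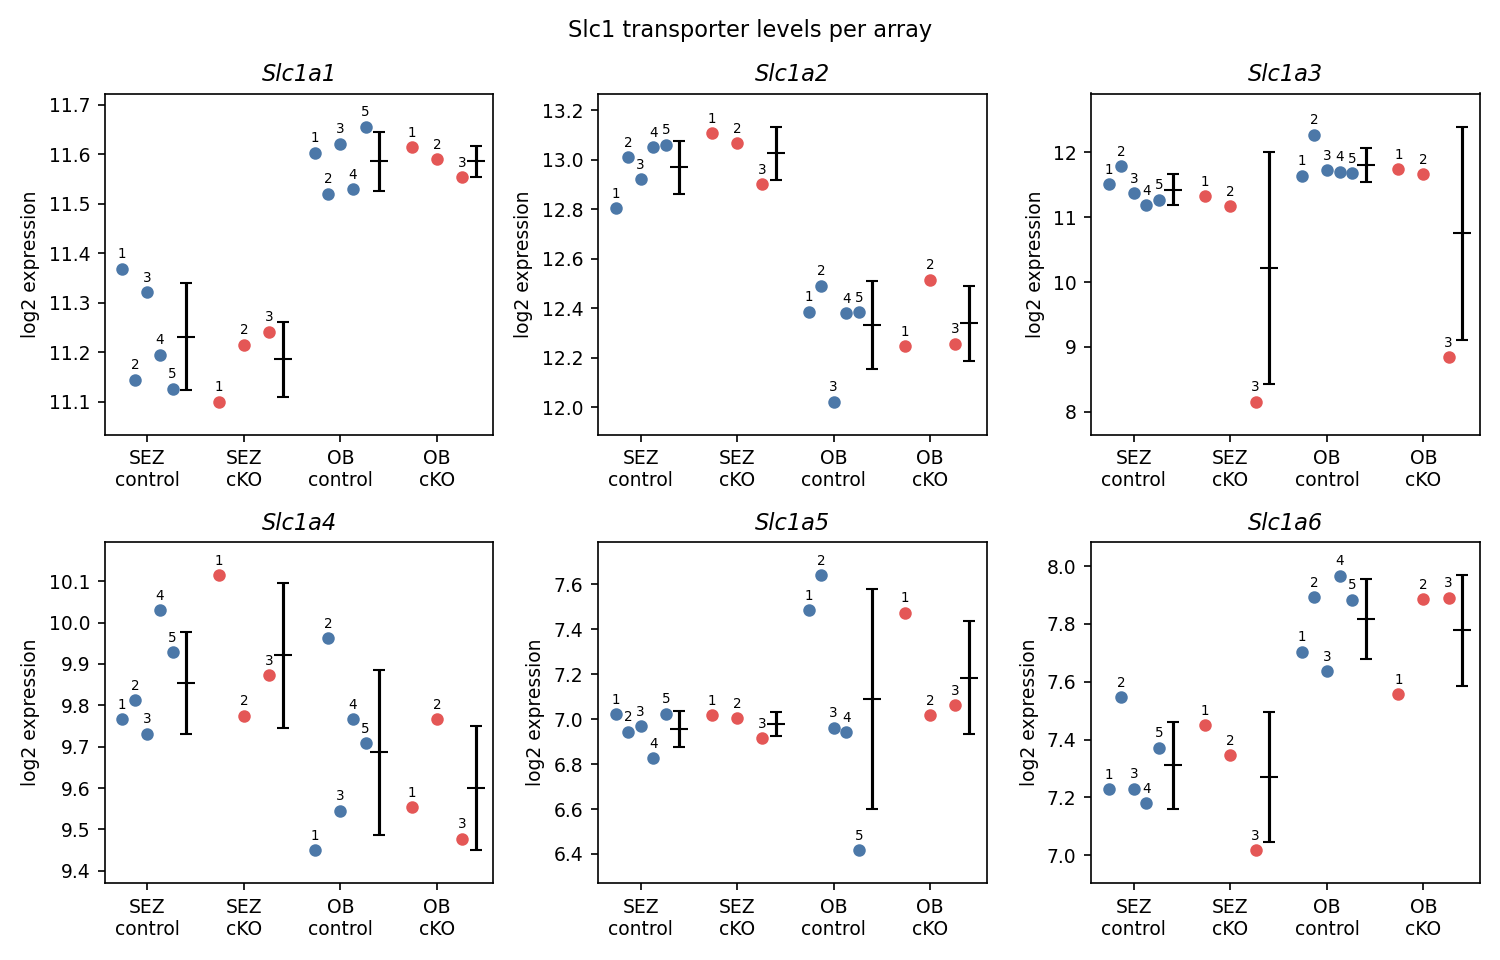
Log2 expression of the 6 Slc1 genes on each array, in 4 groups on the horizontal axis (blue control, red cKO; numbers are replicates; the black bar is the group mean ± SD). Slc1a3 was at 8.16 in SEZ cKO replicate 3 and 8.85 in OB cKO replicate 3, far below every other array, and no other member showed such a step.

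Values are log2 expression, so 1 unit is a doubling, and a level is never set against that of another gene because probe sets differ in brightness. Slc1a3 was low in 1 numbered pair of cKO samples and level in the rest. In SEZ it was 11.32, 11.16 and 8.16 in cKO replicates 1 to 3, against 11.51, 11.79, 11.37, 11.18 and 11.27 in control replicates 1 to 5. In OB it was 11.74, 11.66 and 8.85 in cKO replicates, against 11.64, 12.27, 11.72, 11.70 and 11.67 in controls. In both tissues the replicate 3 array lay below all others of their tissue, while the other cKO arrays fell within or beside the range of the controls. Relative to the mean of the other 7 arrays of its tissue, the SEZ replicate 3 array was at -3.22, or 0.108 times that level, and the OB array at -2.93, or 0.132 times.

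No other gene met the same criterion on these arrays. Slc1a3 was the 1 gene of 19938 for which both cKO replicate 3 arrays lay at least 1 log2 unit below the other 7 arrays of their tissue, and 0 genes lay that far above. Its distance from the nearest other array was -3.01 in SEZ and -2.80 in OB. Among the other 7 numbered pairs the same count was 1 for control replicate 1, where the growth factor gene Fgf1 was at -1.01 and -1.08 from the nearest array, and 0 for the remaining 6. The residual SD of Slc1a3, 1.01, exceeded that of 99.95% of genes, against a median of 0.14.

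In the fit over all arrays, Slc1a3 averaged 10.21 ± 1.78 (SD, n = 3) in cKO and 11.42 ± 0.24 (SD, n = 5) in control SEZ, giving a log2 difference of -1.21 (SE 0.64, 95% interval -2.55 to 0.14, limma adjusted p = 1.00). The OB means were 10.75 ± 1.65 for cKO and 11.80 ± 0.26 for control, with a difference of -1.05 (SE 0.64, 95% interval -2.40 to 0.29, adjusted p = 1.00). Without both replicate 3 arrays the difference was -0.18 in SEZ (95% interval -0.54 to 0.18) and -0.10 in OB (-0.46 to 0.26). The lower group means of Slc1a3 in cKO samples thus came from 1 array in each tissue, and the spread that these arrays add also widened its intervals in every other comparison.

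Astrocyte markers did not show a like step in those arrays. The mean of 12 astrocyte markers in the SEZ cKO replicate 3 array was 10.73, where SEZ controls spanned 10.64 to 10.79. In OB cKO replicate 3 it was 10.58, the lowest of the OB arrays, whose controls ranged from 10.58 to 10.83. Single markers deviated from the mean of the other 7 arrays by -0.23 to 0.53 in SEZ, and by -0.53 to 0.04 in OB, and 1 of 12, the glycolytic enzyme gene Aldoc, was lowest in both tissues. Over all genes, 4.53% were lowest in both replicate 3 arrays and 2.87% highest in both. In single tissues, 2147 of 19938 genes were lowest in the SEZ replicate 3 array and 4235 in the OB replicate 3 array. The part of astrocyte content in the low Slc1a3 values has no other measurement here. Whole tissue was measured, so fewer cells of a type and less RNA per cell cannot be told apart.

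Genes on either side of Slc1a3 on chromosome 15 were also examined in the replicate 3 arrays, taking the 5 nearest measured genes on each side. Of these 10 genes, 0 were lowest in both tissues and 1 was highest in both. That gene was Cplane1, a gene of cilium assembly, at 9.78 in SEZ and 10.26 in OB, which were 0.37 and 0.65 above the mean of the other arrays. Lmbrd2 deviated the other way, by -0.32 in SEZ, inside the range, and by -0.58 in OB, below the range. The direct neighbours, the cohesin loader gene Nipbl and Ranbp3l, were at -0.23 and 0.10 in SEZ and at -0.13 and -0.10 in OB, all inside the range of the other arrays.

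**Figure D2:**
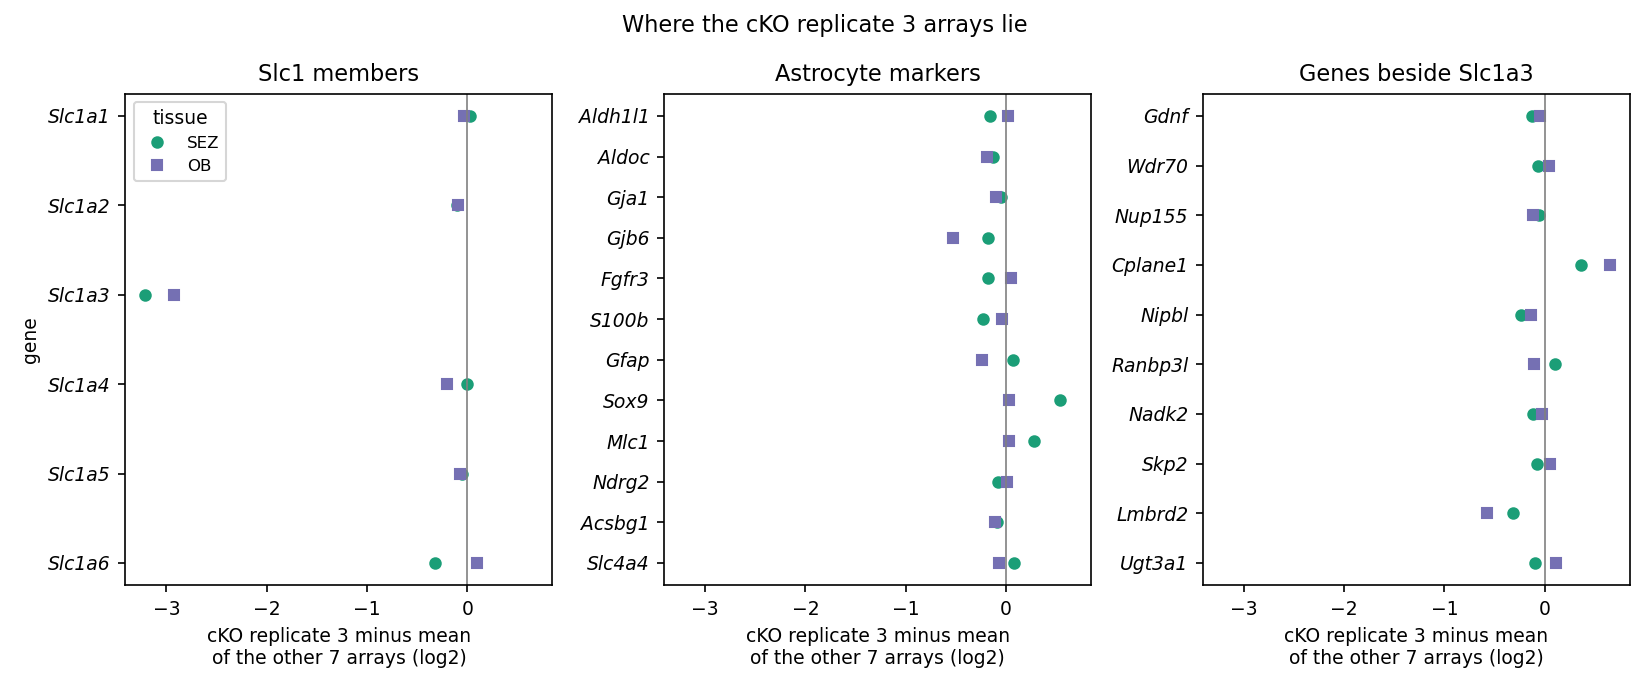
Deviation of the cKO replicate 3 array from the mean of the other 7 arrays of its tissue (horizontal axis, log2) for the Slc1 genes, 12 astrocyte markers and the 10 nearest measured genes beside Slc1a3 (green circles SEZ, purple squares OB). Slc1a3 lay at -3.22 and -2.93, and all other plotted genes between -0.58 and 0.65.

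The other 5 members showed no step of that size in the replicate 3 arrays. Slc1a2, the main astrocyte transporter, was at 12.90 in SEZ and 12.26 in OB, within the ranges of 12.81 to 13.11 and 12.02 to 12.52 of the other arrays. Slc1a1 was at 11.24 and 11.55, Slc1a4 at 9.87 and 9.48, and Slc1a5 at 6.92 and 7.06, each inside the range of the other 7 arrays in both tissues. Slc1a6 was at 7.02 in SEZ, below the range of 7.18 to 7.55, and at 7.89 in OB, inside the range of 7.56 to 7.97. Deviations of these 5 from the mean of the other arrays lay between -0.32 and 0.03 in SEZ, and between -0.20 and 0.10 in OB.

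Among the arrays with Slc1a3 at its usual level, no relation of another member with it passed a test. Over 7 arrays per tissue, 10 relations between Slc1a3 and another member were tested with exact two-sided permutations. The closest was with Slc1a4 in OB (Pearson r = 0.70, exact permutation p = 0.0782, Benjamini-Hochberg adjusted 0.565; Spearman rho = 0.40, exact permutation p = 0.381, adjusted 0.945). That value rests on the arrays at the ends, since r was -0.87 without the 2 arrays farthest from the median of Slc1a3. For Slc1a2, the other astrocyte transporter, r was -0.42 in SEZ (exact permutation p = 0.342, adjusted 0.683; rho = -0.64, p = 0.139, adjusted 0.945) and 0.28 in OB (p = 0.48, adjusted 0.686; rho = -0.36, p = 0.444, adjusted 0.945). Without the 2 farthest arrays these were -0.50 and -0.81. All 10 adjusted values for r lay between 0.565 and 0.88.

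The cKO and control levels of these 5 members were close in both tissues. Slc1a2 averaged 13.03 ± 0.11 (SD, n = 3) in cKO and 12.97 ± 0.11 (SD, n = 5) in control SEZ, and 12.34 ± 0.15 and 12.33 ± 0.18 in OB. Its differences were 0.06 (95% interval -0.16 to 0.27) and 0.01 (-0.21 to 0.22). The neuronal transporter gene Slc1a1 differed by -0.05 in SEZ (-0.19 to 0.10) and by -0.0001 in OB (-0.15 to 0.15), the narrowest intervals of the family. For Slc1a6 the differences were -0.04 in SEZ (-0.29 to 0.21) and -0.04 in OB (-0.29 to 0.21). Each of these 3 genes differed between tissues, as given below, by more than these intervals span.

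For the neutral amino acid transporters too, every interval spanned 0. Slc1a4, a serine and alanine exchanger, averaged 9.92 ± 0.18 in cKO and 9.85 ± 0.12 in control SEZ, a difference of 0.07 (95% interval -0.18 to 0.31). In OB it was at 9.60 ± 0.15 and 9.69 ± 0.20, a difference of -0.09 (-0.33 to 0.16). Slc1a5, a glutamine carrier of dividing cells, differed by 0.02 in SEZ (-0.40 to 0.44) and by 0.10 in OB (-0.32 to 0.51). In each tissue 0 of 6 members passed an adjusted p of 0.05 in limma and 0 of 6 had an unadjusted p under 0.05. Of all genes 0% passed in SEZ and 0.0451% in OB, so this count is that of the background. The unadjusted p was under 0.05 for 492 of 19938 genes in SEZ and for 700 in OB. The median over the 6 members was -0.01 in SEZ and -0.02 in OB, against 0.004 and -0.005 over all genes.

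Groups of cKO and control arrays overlapped for all 6 members in both tissues. Over all genes, 2% did not overlap in SEZ and 2.53% did not overlap in OB. The difference of the cKO effect between SEZ and OB passed for no member (0 of 6 in limma, 0 of 6 at an unadjusted p under 0.05). Of all genes 0.00502% passed, and 296 of 19938 had an unadjusted p under 0.05. The differences between the effects, SEZ minus OB, ran from -0.16 for Slc1a3 (95% interval -2.06 to 1.75) to 0.15 for Slc1a4 (-0.19 to 0.50). Slc1a7 was at 6.83 to 6.99 in the 4 group means, with differences of 0.12 in SEZ and 0.15 in OB that did not pass.

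**Figure D3:**
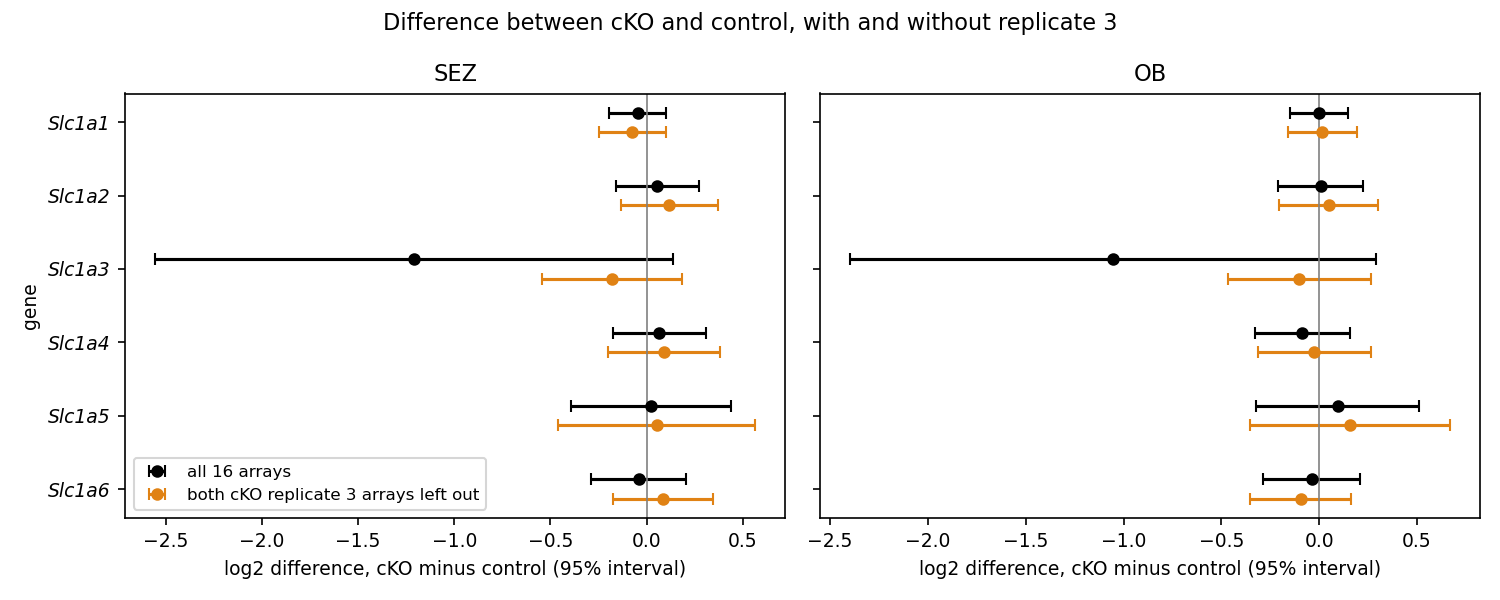
Log2 difference between cKO and control samples with its 95% interval for each Slc1 gene, in SEZ and OB (black, all 16 arrays; orange, without both cKO replicate 3 arrays). The estimate for Slc1a3 was -1.21 and then -0.18 in SEZ, and -1.05 and then -0.10 in OB, and the other members stayed within 0.16 of 0.

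Between the tissues 3 of the 6 members passed in each genotype, where 27.5% of all genes did in controls and 23.1% in cKO samples. The neuronal gene Slc1a1 was higher in OB in both genotypes. Its 5 SEZ controls were at 11.37, 11.14, 11.32, 11.19 and 11.13, and its 5 OB controls at 11.60, 11.52, 11.62, 11.53 and 11.66. These groups did not overlap, and the difference was 0.35 (SE 0.06, 95% interval 0.23 to 0.48, adjusted p = 0.000197), or 1.28-fold. In cKO samples it rose from 11.19 ± 0.08 in SEZ to 11.59 ± 0.03 in OB (difference 0.40, SE 0.08, adjusted p = 0.000939, n = 3 each).

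The astrocyte gene Slc1a2 ran the other way. Its SEZ controls were at 12.81, 13.01, 12.92, 13.05 and 13.06, and its OB controls at 12.38, 12.49, 12.02, 12.38 and 12.38, without overlap. It was lower in OB by a log2 difference of -0.64 (SE 0.09, 95% interval -0.83 to -0.45, adjusted p = 2.32e-05), or 0.643 times the SEZ level. In cKO samples the difference was -0.69 (SE 0.11, adjusted p = 0.00022). Of 12 astrocyte markers, 2 were higher and 1 was lower in OB controls, with 8 estimates below 0 and a median of -0.05. In cKO samples 0 were higher and 1 was lower, with 9 estimates below 0 and a median of -0.15. Their part in the Slc1a2 difference was not tested beyond the fit with these markers as a covariate. In that fit Slc1a1, Slc1a2 and Slc1a6 were called in both genotypes.

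Slc1a6 was also higher in OB. Its SEZ controls were at 7.23, 7.55, 7.23, 7.18 and 7.37, and its OB controls at 7.70, 7.89, 7.64, 7.97 and 7.88, again without overlap. The difference in controls was 0.51 (SE 0.10, 95% interval 0.29 to 0.72, adjusted p = 0.00091), or 1.42-fold. In cKO samples it was 0.51 (SE 0.13, adjusted p = 0.00842), but this call rested on SEZ cKO replicate 3, at 7.02. Without that array the difference was 0.38 (adjusted p = 0.0505), and without both replicate 3 arrays it was 0.32 (adjusted p = 0.158). The probe set lay below the median gene in brightness, with 40.9% of genes dimmer, and the deposited values carry no detection call. Of 5 measured markers of Purkinje and other cerebellar cells, 1 was higher in OB controls, Cbln1 (2.78), and 1 was lower, Calb1 (-3.76). Pcp2, the most specific of them, was at 7.14 in SEZ controls with a difference of 0.08 (SE 0.10) that did not pass.

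Slc1a3 was higher in OB controls, at 11.80 ± 0.26, than in SEZ controls, at 11.42 ± 0.24 (n = 5 each), but this did not pass in the fit over all arrays (difference 0.38, SE 0.55, 95% interval -0.79 to 1.54, adjusted p = 0.703). The control arrays are the same in the fit without both cKO replicate 3 arrays, where the difference of 0.38 had an SE of 0.13 (95% interval 0.10 to 0.65, adjusted p = 0.0405). The SEZ range of 11.18 to 11.79 and the OB range of 11.64 to 12.27 overlapped: SEZ control replicate 2, at 11.79, lay above 4 of the 5 OB controls, and the other SEZ controls lay below all of them. In cKO samples the difference was 0.53 (SE 0.71, adjusted p = 0.677), and 0.46 (SE 0.20, adjusted p = 0.156) without replicate 3 in both tissues. Whether Slc1a3 was called between the tissues thus depended in controls on the replicate 3 arrays. In both genotypes it was called with replicate numbers as a fixed block but not as a random one, as given with the alternatives below. Slc1a2 and Slc1a3, both of astrocytes, thus had estimates of opposite sign between the tissues.

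Slc1a4 had a lower estimate in OB, -0.17 in controls (SE 0.10, adjusted p = 0.253) and -0.32 in cKO samples (SE 0.13, adjusted p = 0.0845). Its cKO arrays did not overlap between tissues, at 10.12, 9.78 and 9.87 in SEZ and 9.55, 9.77 and 9.48 in OB, but the nearest values differed by under 0.01. Without OB cKO replicate 2, at 9.77, the difference was -0.41 (adjusted p = 0.0446). Slc1a5 differed by 0.13 in controls (SE 0.17, adjusted p = 0.658) and by 0.21 in cKO samples (SE 0.22, adjusted p = 0.585).

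In controls 3 of 6 members passed, 2 higher and 1 lower in OB, where 27.5% of all genes passed, 12.6% higher and 14.9% lower. In cKO samples it was also 3 of 6, again 2 higher and 1 lower, against 23.1% of all genes, 10% higher and 13.1% lower. Control groups of the 2 tissues did not overlap for 3 members, against 21.9% of genes, and cKO groups for 4, against 33.3%. Nothing particular to the family can be read from 6 genes against such shares. The interaction of tissue with genotype, given above, passed for none of them.

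**Figure D4:**
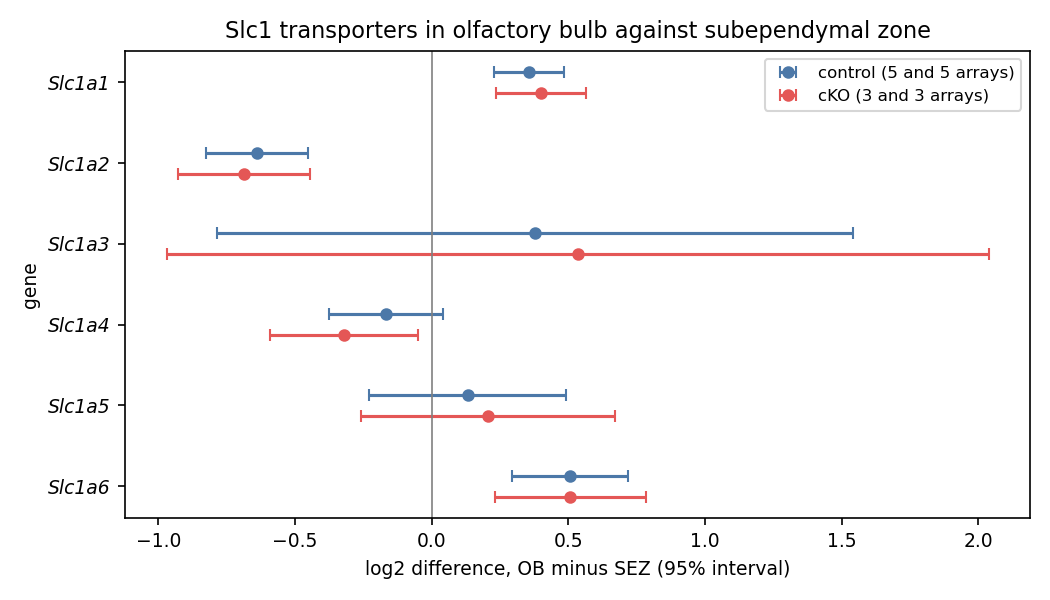
Log2 difference between OB and SEZ with its 95% interval for each Slc1 gene, in control (blue) and cKO (red) samples of the fit over all arrays. Slc1a1 and Slc1a6 were higher and Slc1a2 lower in OB in both genotypes, and the wide intervals of Slc1a3 (-0.79 to 1.54 in controls) include the spread from the replicate 3 arrays.

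Slc1a5 had little spread in SEZ and a wide one in OB. All 8 SEZ arrays lay between 6.83 and 7.02. The probe set lay below the median gene in brightness, with 32.8% of genes dimmer. The deposited values carry no detection call, so whether the SEZ values lay above background was not tested. In OB the controls were at 7.48, 7.64, 6.96, 6.94 and 6.42, and the cKO arrays at 7.47, 7.02 and 7.06. The high arrays were OB control replicates 1 and 2 and OB cKO replicate 1, and the low one was OB control replicate 5, so both genotypes contributed. The 3 genes whose pattern was most like that of Slc1a5, after group means were removed, were Vstm4 (r = 0.96 over 16 arrays), the flavin monooxygenase gene Fmo1 (r = 0.95) and Omp (r = 0.92), the olfactory marker protein gene of sensory neurons whose axons form the outer layer of the bulb.

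Omp was at 10.38, 10.73, 9.82, 8.86 and 7.36 in the OB controls and at 9.95, 8.54 and 9.42 in the OB cKO arrays. In the SEZ, which lacks these axons, it was at 7.14 to 7.75, so OB control replicate 5 was as low in Omp as SEZ tissue. Fmo1 ran from 7.59 to 9.99 over the OB arrays and from 8.96 to 9.39 over the SEZ arrays. Within the 8 OB arrays the Pearson correlation of Slc1a5 was 0.92 with Omp, 0.95 with Fmo1 and 0.96 with Vstm4. Spearman rho was 0.881, 0.905 and 0.786, so Vstm4 was closest by Pearson r and least close by rank. These are descriptions of genes picked as the closest among those above the median level, over arrays that share tissue and dissection, and the part of the outer bulb layers in the Slc1a5 values was not tested.

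**Figure D5:**
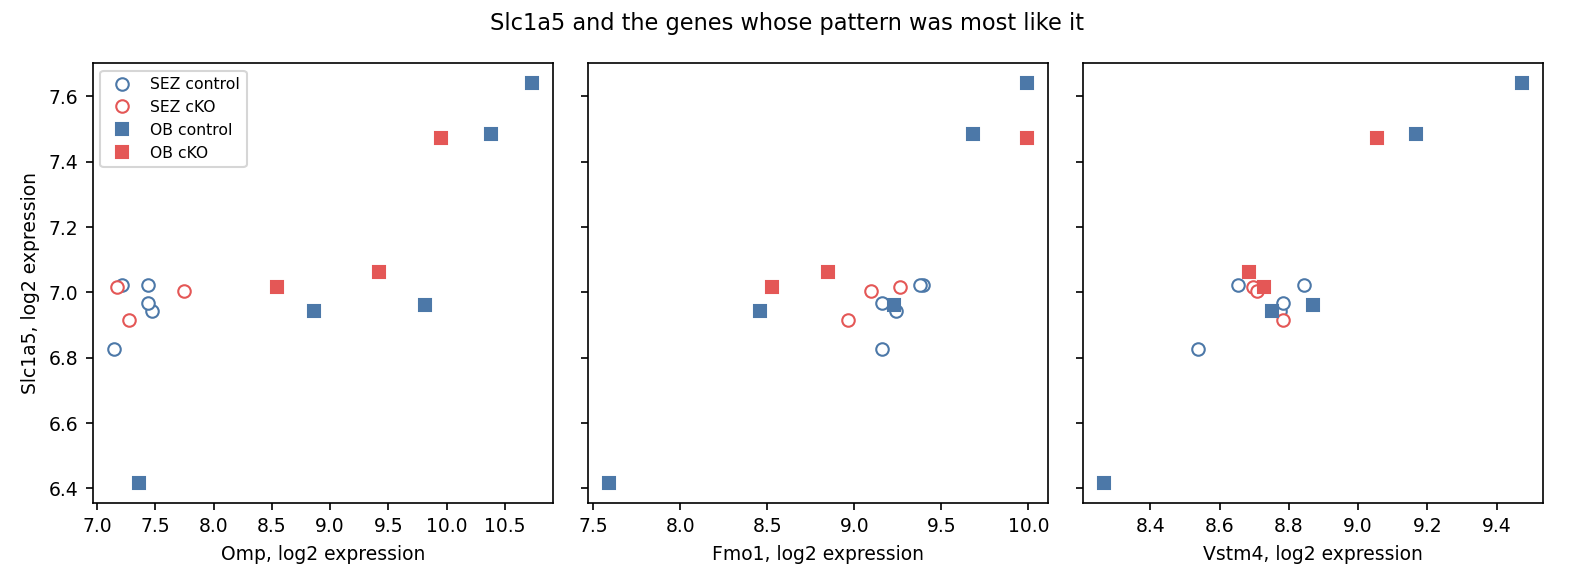
Log2 expression of Slc1a5 (vertical axis) against Omp, Fmo1 and Vstm4 (horizontal axes) on each array (open circles SEZ, filled squares OB; blue control, red cKO). SEZ arrays stay between 6.83 and 7.02 in Slc1a5, and OB arrays spread from 6.42 to 7.64 along with Omp from 7.36 to 10.73.

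For Slc1a3 the genes most like it after group means were removed were the nuclear export factor Cse1l (r = 0.90 over 16 arrays), Gatad1 (0.89), Slc35g2 (0.88), Snap29 (0.87) and Nxt2 (0.87). Their size was far smaller. In the replicate 3 arrays Cse1l was at 11.09 in SEZ, where other arrays spanned 11.26 to 11.40, and at 11.36 in OB, where they spanned 11.71 to 11.87. Without the replicate 3 arrays another set came first. It was led by Akr1a1 (r = 0.90 over 14 arrays), an aldehyde reductase gene, and the stem cell RNA-binding protein gene Msi2 (0.85). The first place of Cse1l thus rests on the replicate 3 arrays, and its r without them is not given here.

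The surrounding pathway, glutamate and amino acid handling, was followed through 8 lists with 50 measured genes of 56 listed. Between cKO and control samples 0 of 50 passed in limma in SEZ and 0 of 50 in OB. At an unadjusted limma p under 0.05 there were 2 in SEZ, Gad1 and Slc17a7, and 0 in OB. Over all 19938 genes there were 492 in SEZ and 700 in OB, so these 2 are not read as a result of the lists. The median difference was -0.02 in SEZ and -0.003 in OB. Slc17a7, which loads glutamate into vesicles of cortical neurons, differed by -1.37 in SEZ, where markers of cortical neurons were uneven between arrays. Without Slc17a7, which is itself such a marker, the other 4 measured markers averaged 6.88 to 7.81 in SEZ controls and 6.82 to 7.03 in SEZ cKO arrays. Their part in the value was not tested.

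Between the tissues 31 of the 50 passed in controls, 21 higher and 10 lower in OB, where 12.6% of all genes were higher and 14.9% lower. In cKO samples 18 were higher and 9 lower, where 10% of all genes were higher and 13.1% lower. Brighter genes were called more often: among genes above the median level, 41.9% passed in controls and 36.3% in cKO samples. The lists hold genes on both sides of that level, and their excess over genes of like brightness was not tested. The counts and values by list, here and in the next paragraph, are for OB against SEZ in control samples unless cKO is named. Of 6 glutamine and alanine carriers of the Slc38 family, 3 were higher: Slc38a1 of neurons (0.80), Slc38a2 (0.76) and Slc38a3 of astrocytes (0.63). Of 4 GABA and glycine transporters, 2 were higher, Slc6a11 of astrocytes by 1.76 and Slc6a9 by 0.49. Serine enzymes had 3 lower and 1 higher of 7. The 3 lower ones, Phgdh (-0.65), Psat1 (-0.75) and Psph (-0.38), form the route from glycolysis to serine, and the higher one, Shmt2 (0.57), converts serine to glycine in mitochondria.

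Enzymes of glutamate and glutamine had 2 higher and 3 lower of 11, led by Gad1 (1.11), which makes GABA from glutamate. Vesicular transporters had 2 higher and 1 lower of 4, with Slc17a7 at 2.91, Slc17a6 at 1.90 and Slc17a8 at -0.91. Other carriers of neutral and acidic amino acids had 5 higher and 2 lower of 10, with Slc6a15 at -0.53 and Slc7a6 at 0.48. Binding partners of Slc1 transporters had 2 higher and 1 lower of 4, led by the scaffold gene Slc9a3r2 (1.23). Genes of the astrocyte sodium pump, potassium channels and water channel were higher in OB for 4 of 4, Kcnj16 (1.48), Kcnj10 (0.49), Aqp4 (0.45) and Atp1b2 (0.18). Of the 8 lists, 5 had members that passed in both directions in controls. Counts differed in cKO samples, where other carriers had 2 higher and 1 lower, and binding partners 2 higher and 0 lower. Enzymes of glutamate and glutamine there had 2 higher and 4 lower.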

How the data were processed

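Total RNA of 16 samples was labelled with biotin and hybridised to 1 array each. The deposited values are log2 expression per probe set, made by the authors with RMA (background correction, quantile normalisation and probe summary) in Affymetrix Expression Console 1.2, per the submitters' processing notes. Raw intensities and detection calls were not used here, and for the probe sets a genome build is not given in the sources. Of 35556 probe sets, 21789 had 1 symbol in the platform annotation, 1621 several and 12146 none; the brightest probe set stood for a gene, which left 19938 genes. Array medians lay between 7.45 and 7.65, the highest correlation between 2 arrays was 0.995, and the number of arrays limits the precision.

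One limma fit (version 3.58.1, R 4.3.3) took in all arrays as 4 groups, with 12 residual degrees of freedom. Tests were two-sided, with Benjamini-Hochberg adjustment across the 19938 genes and a threshold of 0.05. The fit was tested on simulated data with independent normal noise. Those data held no arrays standing apart and no shared deviation of same-numbered arrays. The labels call the samples biological replicates, and p-values measure the spread between them. The fit took all arrays as independent. By their labels, SEZ and OB control replicate 5 differ in Brg1 genotype, so these samples came from different mice. For the other numbers the labels do not say whether SEZ and OB samples came from the same mouse. Members were taken by family name, with no measured value as a rule. They, the lists, the alternatives and the rules for named genes were chosen with earlier results of these data known. Named were all members, the 10 measured genes nearest to Slc1a3, the genes of most similar residual pattern, and from each list those passing or with the largest differences. A subset of those is printed. Xist fell on the same side in the SEZ and OB arrays of 7 of 8 same-numbered pairs, and not in cKO replicate 1. Alternatives were single tissues, other normalisation, filters, probe set means, array weights, variance priors, replicate blocks, left-out arrays, and covariates for astrocyte markers and Xist.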

Additional observations from a re-analysis of the deposited data

Results flagged for a closer look

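Of 12 groups tested (6 genes in the 2 control groups of 5 arrays), 2 had an array far from the rest, and chance gives about 1 in 20. Slc1a3 was at 12.267 in OB control replicate 2, above 11.64 to 11.724 in the other OB controls. Slc1a2 was at 12.022 in OB control replicate 3, below 12.379 to 12.491 in the others. The cKO groups of 3 arrays, including the low Slc1a3 arrays, were not tested in this way.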

How the results depend on the processing

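In the 29 alternatives run for each comparison, 0 members were called between cKO and control samples in either tissue or in the difference between tissues. The fixed replicate block gives no comparison of cKO with control, and fits of 1 tissue give none between tissues. Between OB and SEZ, 2 to 4 members were called in each genotype. Slc1a1 and Slc1a2 were called in both genotypes under every alternative that tested them, and Slc1a6 in controls wherever it was tested. Genes above the median level left Slc1a5 and Slc1a6 untested. Detection above background could not be judged from these values.

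The same-numbered SEZ and OB arrays deviated together in 7 of 8 pairs (r from 0.17 to 0.57) and not in cKO replicate 1 (-0.06), and 2 of 8 SEZ arrays correlated best with their own number, so the numbers were not taken to pair samples. With a fixed replicate block, Slc1a3 was called higher in OB in control samples (0.38, adjusted p = 0.0012) and in cKO samples (0.53, adjusted p = 0.000787), giving 4 members in each. It was higher in OB in 8 of 8 same-numbered pairs, by 0.14 to 0.69. The block and these pairs treat each number as 1 mouse. The labels contradict this for control replicate 5, whose Brg1 genotype differed between SEZ and OB, and do not settle it for the other numbers. With a random replicate block, Slc1a4 was called lower in cKO samples (-0.32, adjusted p = 0.0495). The blocks changed no other call of a member.

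No value that changed sign was called, and the cause was not tested. For cKO against control in SEZ, leaving out 1 array gave -0.03 to 0.14 for Slc1a4, -0.011 to 0.0528 for Slc1a5 and -0.13 to 0.09 for Slc1a6. In OB it gave -0.0166 to 0.0174 for Slc1a1, -0.08 to 0.054 for Slc1a2, -0.0726 to 0.233 for Slc1a5 and -0.10 to 0.07 for Slc1a6. For the difference between the tissue effects it gave -1.11 to 0.87 for Slc1a3, -0.21 to 0.094 for Slc1a5 and -0.11 to 0.13 for Slc1a6. For OB against SEZ it gave -0.00595 to 0.30 for Slc1a5 in controls and -0.50 to 1.49 for Slc1a3 in cKO samples. Array weights gave 0.015 (SEZ) and 0.017 (OB) for Slc1a1, -0.026 for Slc1a2 in OB and 0.023 for the tissue difference of Slc1a6. The astrocyte covariate gave -0.011, -0.016 and -0.056 in SEZ for Slc1a2, Slc1a4 and Slc1a5, and tissue differences of 0.0085 for Slc1a1 and -0.050 for Slc1a2. Without both cKO replicate 1 arrays, Slc1a4 was at -0.03 in SEZ, Slc1a5 at -0.049 and Slc1a6 at 0.072 in OB, and the tissue differences were 0.011 for Slc1a1, -0.040 for Slc1a2 and 0.052 for Slc1a5. Without both cKO replicate 3 arrays, Slc1a6 was at 0.087 in SEZ and 0.18 in the tissue difference, and Slc1a1 at 0.016 in OB. Cyclic loess gave 0.059 for Slc1a1 in OB and 0.013 for the tissue difference of Slc1a6, and median centring 0.011 for Slc1a1 in OB. Without SEZ control replicates 2 and 4, Slc1a5 was at -0.027 in SEZ and the tissue difference of Slc1a6 at 0.034.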

Other observations

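The remaining members had these genes closest in residual pattern over 16 arrays, given as values only. For Slc1a2 they were Lpp (r = 0.93), Plce1 (0.92) and Megf9 (0.92). Slc1a4 was followed by Dnajc16 (0.96), Fuca1 (0.94) and the sterol hydroxylase gene Cyp7b1 (0.92). Slc1a1 was followed by Dusp19 (0.90), the neuronal calcium channel subunit gene Cacng3 (0.90) and BC052040 (0.89), and Slc1a6 by Ppp1r3g (0.90), S100a13 (0.88) and Chchd6 (0.88).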
